A study of Mus musculus with 6 samples.

Results

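The genes *Cd79a*, *Cd79b*, *Ms4a1*, *Pax5*, *Ebf1*, *Vpreb1*, *Igll1*, *Rag1* and *Rag2* were chosen by name for their roles in B-cell development. Each was read from RNA-seq of mouse bone and of cultured osteoblasts as FPKM, a read density per kilobase of transcript scaled to the fragments aligned in the library, summed over all features with that gene name. Of the 9 genes, 8 have a named feature among the 48733 named genes of the deposited tables. Of these 8, 7 averaged 1 FPKM or more, the filter that left 12112 genes for testing, and *Rag2* did not pass it. *Rag1* has no feature of its own. Its RefSeq span, chr2:101638252-101649532 on the minus strand of GRCm38.p6, lies inside a merged feature named *B230118H07Rik* (chr2:101560781-101649532), and the expression of *Rag1* was therefore not analysed here.

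All mice were of the inbred Collaborative Cross strain CC016/GeniUnc, and the labels give neither their age nor their sex. The 3 libraries labelled bone are described as cortical femur without its marrow. The 3 labelled osteoblasts are described as stromal cells grown out of marrow and differentiated for 8 days with dexamethasone (10 nM), beta-glycerophosphate (10 mM) and ascorbic acid (50 µg/ml). The study's methods name 3 mice, and no label says which libraries came from the same mouse, so the p-values below measure only the spread between these libraries.

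Each library is named by its deposited label and replicate number (bone 1 to 3, osteoblasts 1 to 3) and described by its FPKM of the adult beta-globin gene *Hbb-bt*, because the libraries did not part by label. *Hbb-bt* was above 1000 FPKM in bone 3 (34838 FPKM), osteoblasts 2 (34268 FPKM) and osteoblasts 3 (48650 FPKM). It was at most 7.05 FPKM in bone 1 and 2 and osteoblasts 1. Osteoblast genes were present in all 6 libraries, with *Col1a1*, the main collagen of bone matrix, between 1499 and 3332 FPKM. *Sost*, which osteocytes make, went against the labels: it was at most 0.198 FPKM in bone 1, bone 2 and osteoblasts 1, and between 15.8 and 22.7 FPKM in the libraries with much *Hbb-bt*. Other osteocyte genes did not follow *Sost*. *Dmp1* had the opposite order, at 50.0 to 127 FPKM in the former and 22.5 to 24.2 FPKM in the latter, and *Phex* was at 4.61 to 8.19 FPKM over all libraries. *Ibsp*, a matrix gene of osteoblasts, was at 986 to 1278 FPKM in the former and 43.1 to 91.3 FPKM in the latter. The aligned bases implied by the tables ran from 2.03 to 3.39 Gb per library. For a transcript of 1 kb, 3 read pairs then correspond to 0.133 to 0.221 FPKM, a floor that covers counting error only.

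B cells are made in the bone marrow from progenitors that the transcription factors EBF1 and PAX5 commit to the lineage. Pro-B cells rearrange their heavy-chain genes with the RAG1 and RAG2 recombinase, and pre-B cells test the new heavy chain by pairing it with a surrogate light chain made of VPREB1 and lambda5, the product of *Igll1*. CD79A and CD79B are the signalling partners of that receptor and of the later B-cell receptor. CD20, encoded by *Ms4a1*, appears on the surface as B cells mature.

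The promoters of *Cd79a*, *Vpreb1* and *Igll1* are shown as examples. These genes were detected above the floor of 3 read pairs under both labels, as were *Pax5*, *Ebf1* and *Rag2*, whose promoters are not printed. E-boxes are marked because one class of factors, the E proteins such as the product of *Tcf3*, is known to act on early B-cell genes through them. RefSeq promoter windows of 300 bases, 250 before to 50 after a start, were found for 7 of the 9 genes in GRCm38.p6. Those of *Cd79a* (chr7:24897247-24897546, plus strand), *Vpreb1* (chr16:16869206-16869505, minus strand) and *Igll1* (chr16:16863936-16864235, minus strand) read 5′ to 3′, with each E-box of the form CANNTG in capitals:
*Cd79a*: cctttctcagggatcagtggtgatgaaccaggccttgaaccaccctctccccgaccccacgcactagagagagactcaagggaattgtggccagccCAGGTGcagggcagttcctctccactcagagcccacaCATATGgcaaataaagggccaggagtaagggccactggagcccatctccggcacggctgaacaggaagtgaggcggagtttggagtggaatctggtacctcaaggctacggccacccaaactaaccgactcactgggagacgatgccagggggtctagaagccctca
*Vpreb1*: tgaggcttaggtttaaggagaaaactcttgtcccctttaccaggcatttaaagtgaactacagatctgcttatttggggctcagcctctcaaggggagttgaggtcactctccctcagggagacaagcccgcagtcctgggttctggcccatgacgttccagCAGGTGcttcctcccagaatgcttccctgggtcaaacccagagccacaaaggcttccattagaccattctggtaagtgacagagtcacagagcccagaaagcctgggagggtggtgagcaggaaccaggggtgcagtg
*Igll1*: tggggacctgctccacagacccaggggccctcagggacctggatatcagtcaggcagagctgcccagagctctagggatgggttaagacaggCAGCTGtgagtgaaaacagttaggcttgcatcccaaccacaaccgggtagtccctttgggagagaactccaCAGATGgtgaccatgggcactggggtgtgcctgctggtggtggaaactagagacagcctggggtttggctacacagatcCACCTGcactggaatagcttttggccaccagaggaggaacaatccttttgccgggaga

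An E-box CANNTG was found in 7 of the 8 windows of these genes, the exception being 1 of the 2 windows of *Ebf1*, against 72.3% of the 32851 windows in the table. The narrower form CAGGTG, a subset of CANNTG that was read on both strands, was found in 4 of the 8, those of *Cd79a*, *Vpreb1*, *Igll1* and *Rag1*, and in 20.2% of all windows. Each window printed above thus holds CAGGTG, while the windows of *Pax5*, *Ebf1* and *Rag2* do not. For EBF1, 1 palindromic form of its motif was searched, 10 bases long and with no mismatch allowed. It had a match in 0.904% of all windows and in 0 of the 8 windows of these genes. Sites that depart from this form were not searched for, so the count does not show that these windows lack an EBF1 site. All the counts for these motifs are matches of letters in a window, and binding was not measured.

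The surrogate light chain genes were detected in the libraries with *Hbb-bt* above 1000 FPKM under either label. *Vpreb1* measured 11.4 FPKM in bone 3, 11.4 FPKM in osteoblasts 2 and 9.66 FPKM in osteoblasts 3. In the libraries with little *Hbb-bt* it was 0.264 FPKM in bone 1, 0 in bone 2 and 0.203 FPKM in osteoblasts 1. These low values lie near the floor. Here and below, RNA of bulk samples does not tell fewer cells of a type from less RNA per cell.

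The *Vpreb1* feature (chr16:16868402-16870843) extends 1588 bases past the RefSeq gene and shares 108 bases with the feature of *Top3b*, a topoisomerase gene on the other strand. *Top3b* measured 6.66 to 19.5 FPKM over the 6 libraries. The library kit does not mark strand, so reads in the shared bases cannot be assigned to either gene, and their part in the low *Vpreb1* values was not tested.

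*Igll1* (chr16:16860671-16863985, minus strand) measured 13.3 FPKM in bone 3, 5.78 FPKM in osteoblasts 2 and 14.1 FPKM in osteoblasts 3, and it was listed at 0 in bone 1 and 2 and osteoblasts 1. Its value in osteoblasts 2 stood well below the other detected values while that of its partner *Vpreb1* did not. The ratio of *Vpreb1* to *Igll1* in FPKM was 0.858 in bone 3, 1.97 in osteoblasts 2 and 0.683 in osteoblasts 3. From the deposited coverage of the same features, the ratios were 1.04, 1.97 and 1.03 in the same order.

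*Rag2* (chr2:101624718-101632529, plus strand), the recombinase subunit that could be read, was low wherever it was detected. It measured 0.448 FPKM in bone 3, 0.236 FPKM in osteoblasts 2 and 0.426 FPKM in osteoblasts 3, and was listed at 0 in the remaining libraries. The 3 values above 0 were over the floor of 3 read pairs for 1 kb in their libraries, and *Rag2* gave the lowest FPKM of the 8 genes in each of those libraries. The merged feature that holds *Rag1* measured 3.20, 2.01 and 3.95 FPKM in bone 1, 2 and 3, and 2.04, 4.76 and 5.00 FPKM in osteoblasts 1, 2 and 3. How much of this is *Rag1* cannot be read from these tables.

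**Figure D1:**
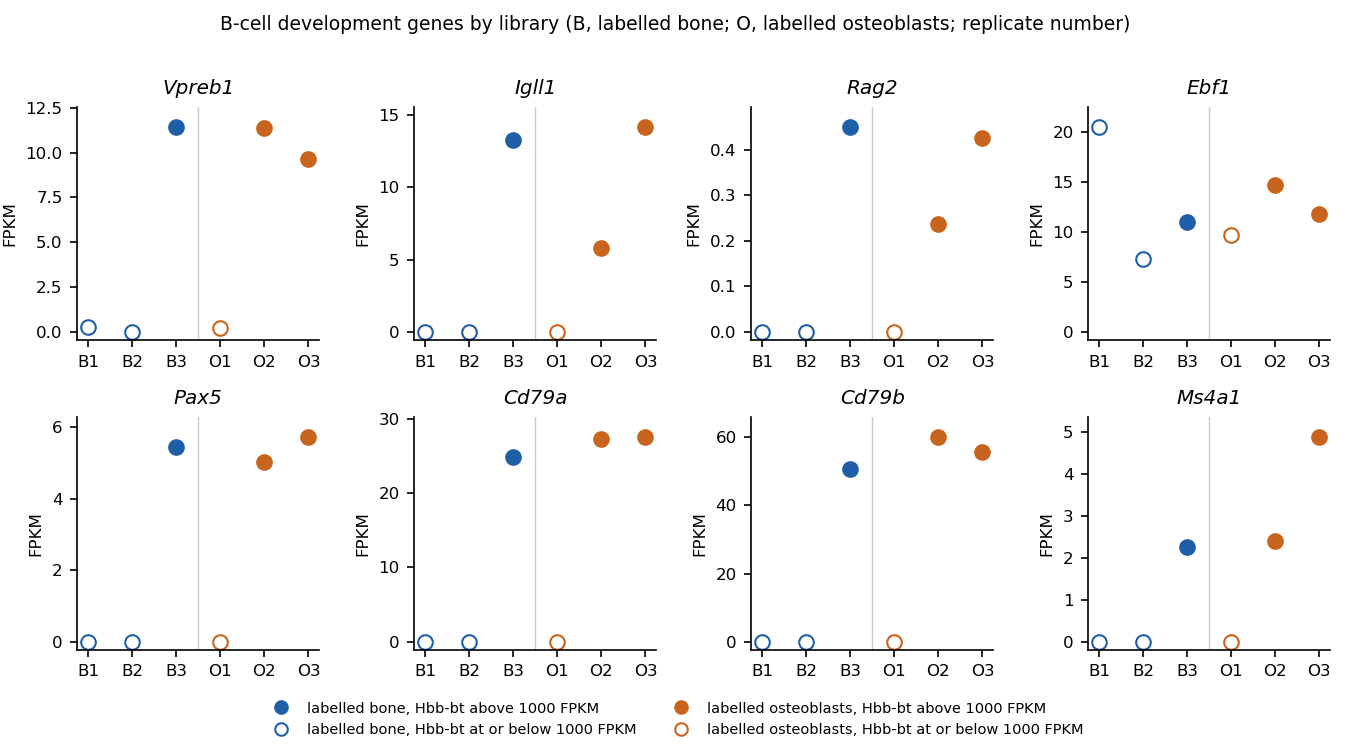
FPKM (y axis, a scale of its own in each panel) of the 8 genes with a named feature in each of the 6 libraries (x axis), 1 point per library, coloured by deposited label and filled where *Hbb-bt* was above 1000 FPKM. In 7 panels the filled points lie above the open ones, while the *Ebf1* points of the 2 kinds are mixed, between 7.27 and 20.5 FPKM.

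The transcription factor genes behaved differently from each other. *Pax5*, which fixes commitment to the B lineage, measured 5.46 FPKM in bone 3, 5.04 FPKM in osteoblasts 2 and 5.72 FPKM in osteoblasts 3. It was listed at 0 in the other 3 libraries. *Ebf1*, which also acts in stromal and fat-forming cells, was above 7 FPKM in every library.

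*Ebf1* measured 20.5, 7.27 and 11.0 FPKM in bone 1, 2 and 3, and 9.68, 14.7 and 11.8 FPKM in osteoblasts 1, 2 and 3. In FPKM, its highest and its lowest value were both in libraries with little *Hbb-bt*. Unnamed features took 71.5% of the summed FPKM in bone 2 and 65.0% in osteoblasts 1, against 27.4 to 30.7% elsewhere. The order of *Ebf1* given here holds for FPKM and can change with the scaling. As coverage per aligned Gb the values were 3.47, 1.31 and 1.12 under the label bone and 1.66, 1.36 and 1.40 under the label osteoblasts, so that bone 1 remained the highest but bone 3 and no longer bone 2 was the lowest. The ratio of coverage, not divided by aligned Gb, to FPKM of *Ebf1* ran from 0.255 to 0.421 between libraries. The commonest ratio over features, taken as the aligned Gb, ran from 2.035 to 3.388. The 2 measures thus differ strongly for *Ebf1*, and the cause was not tested.

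*Cd79a* and *Cd79b*, the signalling pair of the B-cell receptor, were the most abundant of the 7 genes that were low or absent in bone 1 and 2 and osteoblasts 1. *Cd79a* (chr7:24897381-24902197, plus strand) measured 24.8 FPKM in bone 3, 27.2 FPKM in osteoblasts 2 and 27.5 FPKM in osteoblasts 3. *Cd79b* (chr11:106311341-106314762, minus strand) measured 50.7, 60.0 and 55.5 FPKM in the same libraries. Both were listed at 0 in the other 3. The ratio of *Cd79b* to *Cd79a* varied little where both were detected, at 2.04, 2.20 and 2.02 in FPKM and at 1.87, 2.06 and 1.84 in coverage.

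*Ms4a1* (chr19:11249675-11266241, minus strand), the single gene of mature B cells among the 9, measured 2.26 FPKM in bone 3, 2.40 FPKM in osteoblasts 2 and 4.88 FPKM in osteoblasts 3, and was listed at 0 in the other 3 libraries. Among the 3 libraries with *Hbb-bt* above 1000 FPKM, the FPKM ranked in the order *Cd79b*, *Cd79a*, then *Ebf1*, *Vpreb1* and *Igll1*, whose ranges overlap, then *Pax5*, *Ms4a1* and *Rag2*.

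In all, 7 of the 8 genes had their 3 highest values in bone 3 and osteoblasts 2 and 3, with *Ebf1* the exception. This order was common, and 38.4% of the 12112 genes tested had it. Markers of other blood cells moved with it. All 6 neutrophil genes listed had it, with a summed FPKM of 13395 to 16099 in those libraries against at most 5.45 in the others, and so did *Alas2*, a gene of heme synthesis in erythroid cells. All 6 T cell genes had it, with a summed FPKM of 29.3 to 41.0 against at most 0.122. Of 4 genes of plasmacytoid dendritic cells, *Siglech* and *Ly6d* had it and *Bst2* and *Tcf4* did not, and *Ly6d* is also a gene of early lymphoid cells. Of the osteoblast and stromal genes, 5 and 4 with a named feature, 0 had it, and of 3 osteocyte genes *Sost* alone did. The part of these cells in the B-cell values was not tested.

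Compared by deposited label, no difference in the 7 genes tested passed the threshold. limma on log2(FPKM + 1) called 0 of the 7 at a Benjamini-Hochberg adjusted p under 0.05, beside 0% of all 12112 genes higher and 0% lower in osteoblasts, and 17 genes had an unadjusted p under 0.05. The largest difference was that of *Cd79b*, higher by 2.02 in osteoblasts (standard error 1.86, limma adjusted p = 0.999). *Cd79a* followed with 1.65 (standard error 1.54, limma adjusted p = 0.999), while *Ebf1* was at 0.0034 (standard error 0.49, limma adjusted p = 0.9995). None of the 7 separated the labels without overlap, beside 0.916% of all genes tested.

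For *Cd79b* the mean FPKM was 16.9 ± 29.3 (SD, n = 3) over bone 1 to 3 and 38.5 ± 33.4 (SD, n = 3) over osteoblasts 1 to 3. For *Ebf1* it was 12.9 ± 6.82 (SD, n = 3) and 12.1 ± 2.52 (SD, n = 3). On the log2 scale the exact two-sided permutation test gave p = 0.4 for *Cd79a*, *Cd79b* and *Ms4a1*, p = 0.7 for *Pax5*, *Vpreb1* and *Igll1*, and p = 1 for *Ebf1* and *Rag2*, where 3 libraries against 3 allow no p below 0.1. For each of the 8 genes the difference between the labels was smaller than the larger of their SDs on this scale.

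The calls changed when single libraries were left out. Without bone 3, limma called *Cd79b* alone of the 7 higher in osteoblasts (difference 3.92, standard error 0.96, limma adjusted p = 0.0489), beside 0.545% of all genes called higher. Without osteoblasts 1, it called *Cd79a* (difference 3.26, standard error 0.79, limma adjusted p = 0.0163) and *Cd79b* (difference 3.98, standard error 0.88, limma adjusted p = 0.00884), beside 2.16% of all genes called higher. Without any one of the other 4 libraries it called none of the 7. The exact permutation test gave p = 0.6 for *Cd79b* without bone 3 and p = 0.2 for *Cd79a* and *Cd79b* without osteoblasts 1. With all 6 libraries the limma standard errors were larger, at 1.54 for *Cd79a* and 1.86 for *Cd79b*. Both genes were high only in bone 3 and osteoblasts 2 and 3. The calls are therefore no evidence of a difference between bone and osteoblasts.

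**Figure D2:**
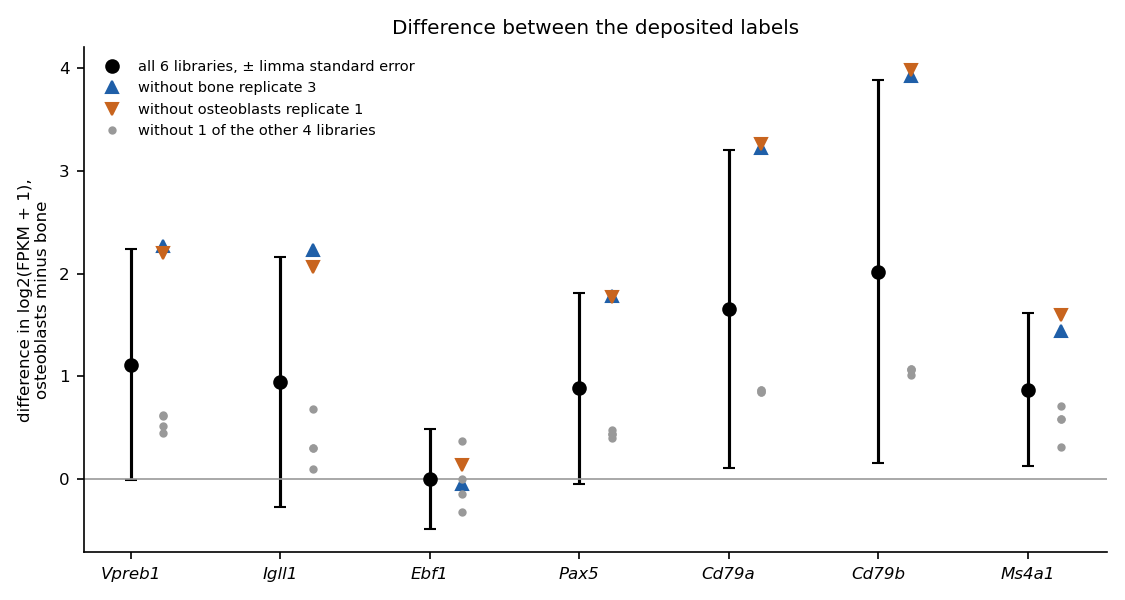
Difference in log2(FPKM + 1) between the deposited labels, osteoblasts minus bone (y axis), for the 7 genes tested (x axis), with black points and bars for all 6 libraries and the limma standard error, and smaller symbols for the same difference without 1 library. The differences of *Cd79a* and *Cd79b* reach 3.26 and 3.98 without osteoblasts 1, and the points of *Ebf1* lie on either side of 0.

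Genes of the pro-B and pre-B stages were next set against *Ms4a1* within each library. The summed FPKM of *Vpreb1*, *Igll1* and *Rag2* was 25.1 in bone 3, 17.4 in osteoblasts 2 and 24.2 in osteoblasts 3. It exceeded *Ms4a1* by 11.1 times, 7.23 times and 4.96 times in these libraries, and by 19.1, 13.5 and 7.57 times in coverage. In the same libraries, 7 other mature B-cell genes summed to 19.8, 24.3 and 38.3 FPKM. The sum of 6 other pro-B and pre-B genes was 42.4, 40.8 and 39.7 FPKM. The size of the excess thus depends on the genes chosen. No ratio can be given for the other 3 libraries, where *Ms4a1* was listed at 0. A comparison of the ratio by label would rest on 1 library labelled bone and 2 labelled osteoblasts, and none was drawn.

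In osteoblasts 3, where this ratio was lowest, other mature B-cell genes were also at their highest. Of 7 other mature B-cell genes with a named feature, 7 had their highest value of all 6 libraries there, as did 2291 of the 12112 genes tested. All 7 had their 3 highest values in bone 3 and osteoblasts 2 and 3, so their highest could fall only in those libraries. Most genes tested lacked that order, so the 2 counts are not alike. *Fcmr*, an Fc receptor for IgM, measured 5.57 FPKM in bone 3, 7.55 FPKM in osteoblasts 2 and 9.93 FPKM in osteoblasts 3. *Cd22*, a coreceptor that restrains B-cell receptor signals, measured 6.58, 7.47 and 8.34 FPKM in the same order. *Bank1*, a scaffold of B-cell receptor signalling, measured 1.39, 2.83 and 5.24 FPKM.

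Relative to bone 3, the 8 mature B-cell genes, *Ms4a1* included, were at a median of 2.14 times in osteoblasts 3, ranging from 1.27 to 3.76, and at 1.12 times in osteoblasts 2, ranging from 0.665 to 2.03. For 9 pro-B and pre-B genes above the floor the medians were 0.975 times, ranging from 0.822 to 3.62, and 0.998 times, ranging from 0.435 to 2.26. The upper ends were those of *Il7r*, the receptor of interleukin 7, singled out after its values were seen, at 0.406 FPKM in bone 3, 0.919 FPKM in osteoblasts 2 and 1.47 FPKM in osteoblasts 3, against 0.607 to 0.925 FPKM elsewhere. The range of this list thus overlaps that of the mature genes. All 8 mature genes, but only 6 of these 9, had their 3 highest values in bone 3 and osteoblasts 2 and 3. For those 6 the median was 0.963 times in osteoblasts 3, ranging from 0.822 to 1.29. In osteoblasts 2 it was 0.802 times, ranging from 0.435 to 1.11. For 10 genes of all B stages the medians were 1.12 times and 0.976 times. All genes tested and above the floor, 11995 in number, were at a median of 1.07 times in osteoblasts 3, with quartiles of 0.896 and 1.37. The 4651 of them with their 3 highest values in bone 3 and osteoblasts 2 and 3 were at 1.01 times, with quartiles of 0.874 and 1.20. Each value compares single libraries, and no test was run.

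**Figure D3:**
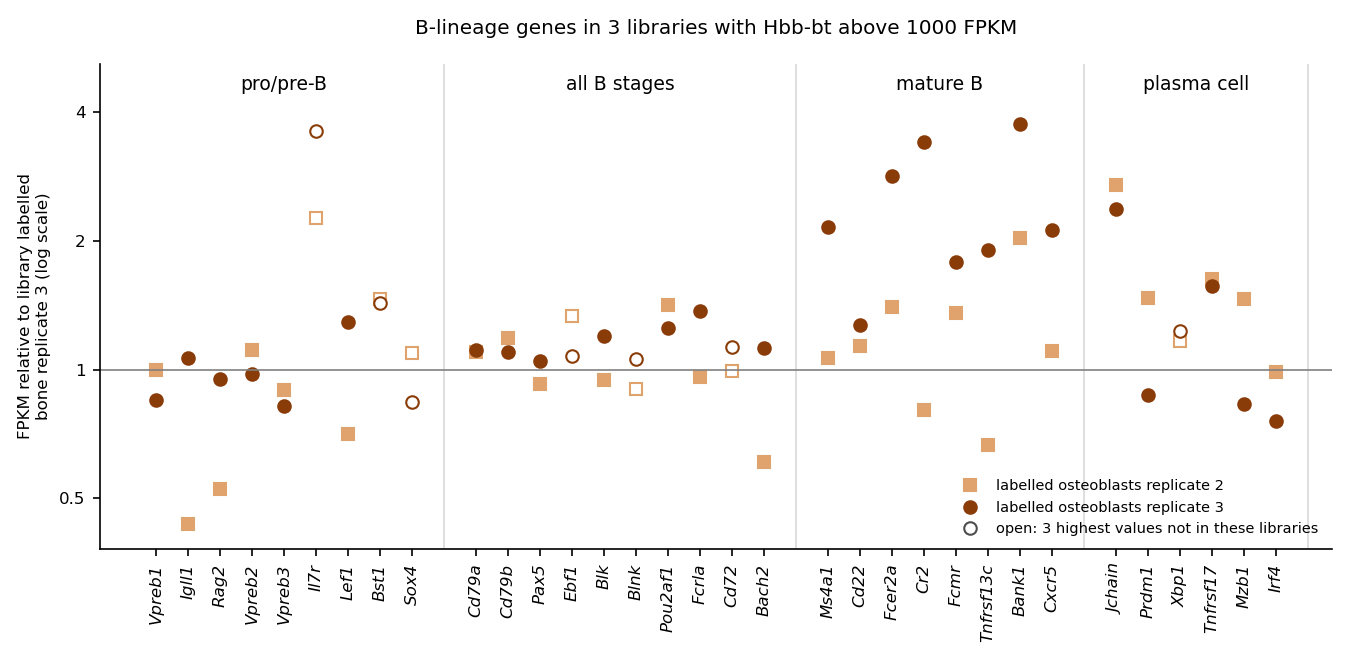
FPKM of B-lineage genes in the libraries labelled osteoblasts 2 (squares) and osteoblasts 3 (circles) relative to bone 3 (y axis, log scale), for all list genes above the floor, grouped by stage (x axis), with open symbols for genes whose 3 highest values were not in these libraries. The circles of the mature B-cell genes lie between 1.27 and 3.76, and those of the pro-B and pre-B genes between 0.822 and 3.62, the value of *Il7r*.

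Further genes of each stage, from lists of known markers, followed the 7 genes in part. Of 6 other pro-B and pre-B genes with a named feature, 3 had their highest values in the same 3 libraries. *Vpreb3*, a relative of *Vpreb1*, measured 27.6, 24.7 and 22.6 FPKM in bone 3 and osteoblasts 2 and 3, against at most 0.165 FPKM elsewhere. *Bst1* had the opposite order, with 8.64 to 17.2 FPKM in bone 1 and 2 and osteoblasts 1 and 2.17 to 3.16 FPKM in the others. Its product, an ectoenzyme, was first known from marrow stromal cells.

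Of 6 other genes of the whole B lineage, 4 had this order. *Pou2af1*, a coactivator of immunoglobulin genes, measured 9.02, 12.8 and 11.3 FPKM in bone 3 and osteoblasts 2 and 3 and was listed at 0 in the other libraries. *Fcrla*, an Fc receptor-like gene of B cells, was at 6.85, 6.58 and 9.40 FPKM there, and elsewhere did not exceed 0.0415 FPKM. *Blnk*, an adaptor that macrophages also express, and *Cd72*, a coreceptor of B cells, did not have it, with 4.97 to 10.2 and 4.13 to 8.19 FPKM over the 6 libraries. limma called 0 of the 5, 6 and 6 genes tested of the pro-B and pre-B, whole-lineage and mature lists. Their median differences of 0.61, 0.75 and 0.88 (log2) stand beside 0.12 over all genes tested. For genes high only in bone 3 and osteoblasts 2 and 3, a positive difference follows from how those libraries are labelled. The medians are therefore no evidence of a difference between bone and osteoblasts.

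Of 6 plasma cell genes, 5 had their 3 highest values in these libraries and 0 had their highest in osteoblasts 3. *Jchain*, which joins IgM and IgA chains, measured 33.0 FPKM in bone 3, 89.1 FPKM in osteoblasts 2 and 78.5 FPKM in osteoblasts 3, and was listed at 0 elsewhere. *Mzb1*, a chaperone of antibody secretion, measured 11.5, 16.8 and 9.54 FPKM in the same libraries. *Xbp1*, a factor of secretory cells in general, was between 21.7 and 79.6 FPKM over the 6 libraries. Of the light-chain constant genes *Iglc1* measured 34.3, 36.2 and 57.9 FPKM and *Iglc2* 16.9, 14.6 and 21.5 FPKM in bone 3 and osteoblasts 2 and 3, and both were at 0 in the others.

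Among partners of the B-cell factors, *Tcf3*, which encodes some of the E proteins, measured 54.3, 53.2 and 46.0 FPKM in bone 3 and osteoblasts 2 and 3, and 7.00 to 14.6 FPKM in the other libraries. *Tcf12*, of the same list and named after its values were seen, was at 6.27 to 9.72 FPKM in the former and 10.1 to 12.9 FPKM in the latter. *Spi1*, which encodes the myeloid and lymphoid factor PU.1, ranged from 18.7 to 50.8 FPKM and *Irf8* from 10.9 to 44.3 FPKM over the 6 libraries. Of 8 such genes with a named feature, 5 had their 3 highest values in those libraries, and of these *Myb* and *Ikzf3*, also picked after their values were seen, were at 17.6 to 25.6 and 3.14 to 5.21 FPKM there and at most 0.0158 FPKM and 0 in the others. Of 7 B-cell receptor signalling genes 2 did, among them *Plcg2*, a phospholipase, at 36.3 to 40.5 FPKM there and 9.67 to 17.4 FPKM in the others. *Cd81*, which encodes a tetraspanin, had the opposite order, at 83.9 to 92.5 FPKM there and 111 to 209 FPKM in the others. Of 7 end-joining genes 2 had their 3 highest values in bone 3 and osteoblasts 2 and 3. Among them was *Xrcc6*, which encodes Ku70, at 15.2 to 23.1 FPKM there and 4.03 to 8.24 FPKM in the others.

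The *Ebf1* relatives were lower than *Ebf1* in each library. *Ebf3* ranged from 1.41 to 5.02 FPKM, *Ebf2* from 0.419 to 2.38 FPKM and *Ebf4*, singled out after its values were seen, from 0.0499 to 2.08 FPKM. *Zfp423* and *Zfp521*, whose zinc finger products bind EBF1, ranged from 0.546 to 2.68 and from 1.3 to 5.23 FPKM. Of these 5 genes, *Ebf4* alone had its 3 highest values in the libraries with *Hbb-bt* above 1000 FPKM.

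*Ebf1* and *Pax5* are long genes, of which the tables list unnamed features within the span as well. Inside *Ebf1* (chr11:44617317-45008091) 16 such features had a median of 0.228, 0.10 and 1.52 FPKM in bone 1, 2 and 3, and of 0.0686, 1.58 and 2.00 FPKM in osteoblasts 1, 2 and 3. This was 13.8%, 10.7% and 16.9% of the FPKM of *Ebf1* in bone 3 and osteoblasts 2 and 3, and 0.709 to 1.38% in the others. The named gene and its inner features thus ranked the libraries differently, with the highest *Ebf1* in bone 1 and the highest inner features in the 3 libraries that hold *Pax5*.

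Inside *Pax5* (chr4:44524757-44710487) 33 unnamed features had a median of 1.12, 1.08 and 0.866 FPKM in bone 3 and osteoblasts 2 and 3. In bone 1 and osteoblasts 1 none was above 0, and in bone 2 a single one was, at 0.618 FPKM. A higher share of inner features in these libraries was general. Over 840 genes with at least 5 unnamed features inside and an FPKM of at least 1 in every library, the inner features were at a median of 9.55 to 10.5% of the gene in bone 3 and osteoblasts 2 and 3, and of 0 to 1.68% in the other 3. What these features are was not tested.

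**Figure D4:**
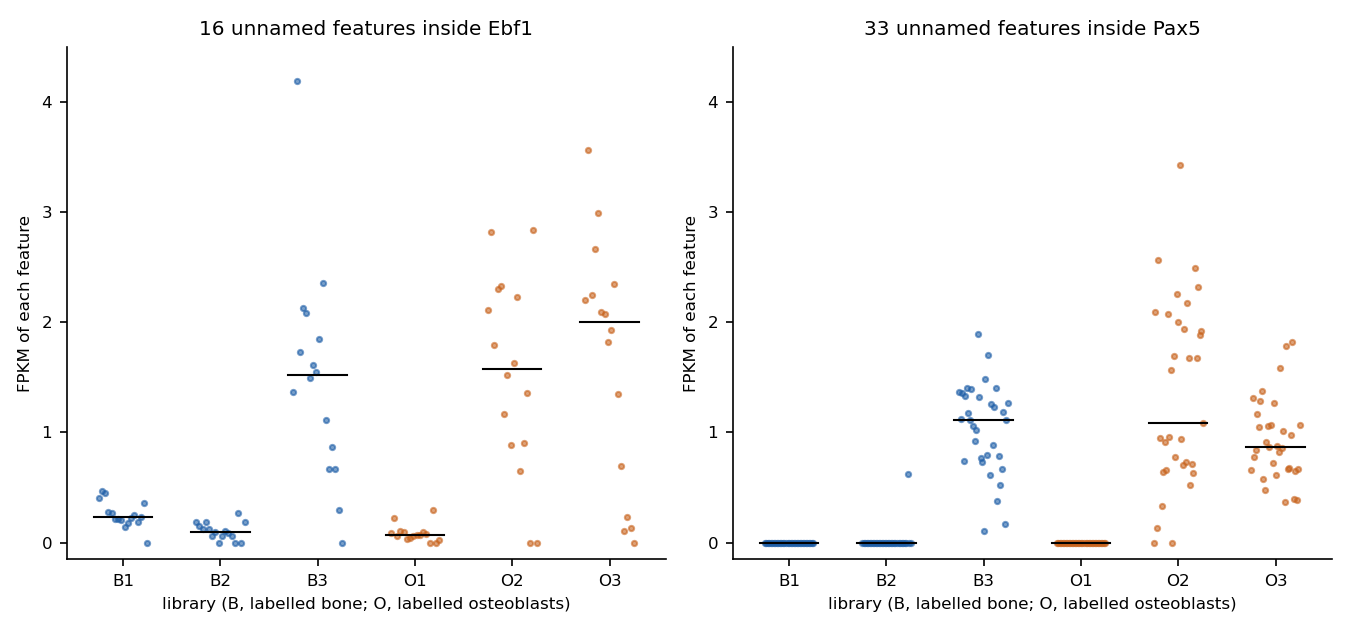
FPKM (y axis) of each unnamed feature inside *Ebf1* (16 features) and inside *Pax5* (33 features) in the 6 libraries (x axis), 1 point per feature with the median as a black line. The *Ebf1* medians are at most 0.228 FPKM in bone 1, bone 2 and osteoblasts 1 (B1, B2, O1) and between 1.52 and 2.00 FPKM in the others (B3, O2, O3).

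The genes closest in pattern were found by the root mean square difference of log2(FPKM + 1), centred per gene, over the 6 libraries. Closest to *Cd79a* were *Alox15* and *Alox12*, which encode lipoxygenases, *1300017J02Rik*, *Lat*, an adaptor of T cells and platelets, and *Gp5*, a platelet glycoprotein, at differences of 0.0475 to 0.131. *Alox15* measured 24.8, 25.5 and 25.4 FPKM in bone 3 and osteoblasts 2 and 3 and was listed at 0 in the others. Closest to *Ebf1* were *Tusc5*, *Stn1*, *Mtch1*, *Gatb* and *Slc41a1*, at 0.0770 to 0.105. *Mtch1*, a gene of the mitochondrial outer membrane, measured 71.2, 28.8 and 40.3 FPKM in bone 1, 2 and 3 and 39.2, 48.2 and 39.7 FPKM in osteoblasts 1, 2 and 3. The likeness describes 6 libraries that share these labels and was not tested.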

How the data were processed

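The authors sequenced pairs of 75 bp, aligned them with HISAT2 2.0.5 to GRCm38 and estimated expression with StringTie 1.3.3. They deposited, per feature and library, its coverage (a signal, mean reads per base), its FPKM (scaled to the fragments aligned in the library) and its TPM (rescaled within the library). No read counts were given, so intervals on single values could not be computed. The commonest value of coverage divided by FPKM, over features with coverage above 1, was taken as the aligned bases and implied 13566700 to 22586700 aligned pairs. Unnamed features took 27.4 to 71.5% of the summed FPKM, the most in bone 2 and osteoblasts 1.

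Features of one name were summed. Genes averaging 1 FPKM or more were compared by label with limma 3.58.1 in R 4.3.3 (log2(FPKM + 1), eBayes with a trend, Benjamini-Hochberg over 12112 genes). The fit was first tested on simulated data with a spread of 0.3, where it recovered 200 of 200 genes shifted by 2 and made 9 other calls. In the real data the SD within a label reached 3.39 for *Cd79b* on the log2 scale, so that outcome does not carry over. Single genes were tested by exact permutation with scipy 1.17.1 (Python 3.11.15). The planned ratio of pro-B and pre-B genes to *Ms4a1* held *Rag1*, which has no named feature, and its test is not used, since in 3 libraries the added 1 sets the ratio.

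Libraries were kept under their labels. *Hbb-bt* describes them and forms no tested group. The named genes are the 9, those of highest mean FPKM in the marker lists, and the 5 nearest *Cd79a* and *Ebf1*. The 9 genes, lists and promoter motifs were chosen with earlier results of these data known. List genes without a named feature, such as *Dntt*, *Ighm* and *Igkc*, were not analysed here, and 2 genes of the planned lists are not reported here. Alternatives were another pseudocount (0.1), filters of 0.1 and none, TPM, scaling to named genes, no trend, a replicate block, leaving out each library and, added after seeing the data, coverage per aligned Gb.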

Additional observations from a re-analysis of the deposited data

How the results depend on the processing

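The differences between the labels kept their sign under every alternative run for *Cd79a*, *Cd79b*, *Ms4a1*, *Pax5*, *Vpreb1* and *Igll1*. These genes were high only in bone 3 and osteoblasts 2 and 3, so the kept sign follows from how those libraries are labelled. It is no evidence of a difference between bone and osteoblasts. The difference of *Ebf1*, 0.0034 on the log2 scale, turned to -0.072 with TPM, to -0.17 with scaling to the sum of named genes and to -0.18 with coverage per aligned Gb. Leaving out each library in turn, it ranged from -0.32 to 0.37, that of *Rag2* from -0.025 to 0.27, and that of the log2 ratio of pro-B and pre-B genes to *Ms4a1*, which the added 1 sets in 3 libraries, from -0.069 to 1.43. The cause was not tested.

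Across all genes limma called 0 higher and 0 lower, and leaving out each library gave 0 to 262 higher and 0 to 38 lower, with 0 to 2 of the B-cell genes among them. The upper ends came without osteoblasts 1, and 66 higher and 11 lower came without bone 3. Without a filter on low values 1 gene was called lower. With the replicate number as a block, 46 genes were called higher and 3 lower, and none of the B-cell genes. No label says that libraries of the same number share a mouse. Over 12112 genes the deviations of same-numbered libraries from their label means correlated at 0.84, -0.75 and 0.83 for numbers 1, 2 and 3. Bone 2 correlated best with osteoblasts 1, at 0.80. Correlations were positive where both libraries lay on the same side of 1000 FPKM of *Hbb-bt* and negative otherwise. They therefore cannot tell whether libraries share a mouse. Values of *Rag2* near the floor of 3 read pairs are limited by depth.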
